A study of Homo sapiens with 12 samples.

Results

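The genes described here are 7 transcription factors known to drive the epithelial-to-mesenchymal transition (EMT), *ZEB1*, *ZEB2*, *SNAI1*, *SNAI2*, *TWIST1*, *TWIST2* and *PRRX1*, together with *VIM*, which encodes the intermediate filament protein vimentin. They were chosen by name, and all 8 were found among the 32152 genes of the deposited table and among the 13737 protein-coding genes that were tested. RNA-seq was performed on 12 libraries from MDA-MB-231 and Hs-578T, 2 established human lines of triple-negative breast cancer, with 2 libraries for each of 6 groups. In each line the groups were parental control cells, cells labelled ERK5-ko, in which *MAPK7*, the gene of the kinase ERK5, was targeted by CRISPR/Cas9, and cells labelled MEK5DD, in which MEK5, the upstream kinase of ERK5, is expressed in an always-active form. The samples ask how EMT genes differ when the MEK5-ERK5 pathway is removed or held on.

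Limits of these groups as models came from the labels and the study's methods. The MDA-MB-231 ERK5-ko line was grown from 1 surviving clone, and the Hs-578T ERK5-ko line was also grown from single cells. The control was the parental line in each case, and the labels name no empty vector. The labels gave passages 29 and 30 for MDA-MB-231 parental, 7 and 8 for its ERK5-ko and 10 and 11 for its MEK5DD libraries, and 83 and 84 for Hs-578T parental against 8 and 9 for both other Hs-578T groups. By the study's methods, the ERK5-ko lines were made from parental cells at higher passages than the ERK5-ko labels give. The labels do not say where each passage count begins, so they give no relative age of the cells. A difference from parental cells may therefore be one of passage, of genotype or, for ERK5-ko, of growth from single cells, which cannot be told apart here. The replicates are consecutive passages and nothing in the labels says that they are separate cultures, so the p-values measure the spread between these libraries, which may be technical.

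EMT transcription factors repress and activate genes, and those of the ZEB, Snail and TWIST families bind short DNA elements called E-boxes. ZEB1 and ZEB2 are zinc finger and homeodomain proteins, SNAI1 (Snail) and SNAI2 (Slug) are zinc finger proteins, TWIST1 and TWIST2 are basic helix-loop-helix proteins, and PRRX1 is a paired-related homeobox protein. In epithelial tissue they are known to switch off junction genes such as *CDH1* (E-cadherin) and to accompany a rise in mesenchymal genes, of which *VIM* is a widely used marker. Both cell lines are of the mesenchymal-like, basal B class of breast cancer lines.

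Values were deposited as RPKM, read counts scaled by the length of the gene model and by the library total. Library totals recovered from these values lay between 20248162 and 27791195 reads, so that 3 reads of a 1-kb gene model were worth 0.108 to 0.148 RPKM. Replicates differed by more than read sampling in every group, with a chi-square per degree of freedom of 2.82 to 8.92 in 4 groups, 30.7 in Hs-578T parental and 42.2 in Hs-578T MEK5DD. *MAPK7* was at 13.3 and 14.3 RPKM in MDA-MB-231 parental against 16.3 and 17.8 in the libraries labelled ERK5-ko, and at 14.0 and 16.0 against 17.8 and 18.1 in Hs-578T, with log2 differences of 0.29 and 0.26 (adjusted p = 0.0710 and 0.0624, limma). The RNA therefore gives no check of this label, and ERK5-ko below is the name on the libraries. *MAP2K5*, the gene of MEK5, was at 188.5 and 183.8 RPKM in the MDA-MB-231 MEK5DD libraries against 12.9 and 13.6 in parental ones, and at 21.3 and 23.8 against 14.6 and 16.9 in Hs-578T. Of 12 mesenchymal markers, 10 or 11 were at a mean of 1 RPKM or more in each MDA-MB-231 group and all 12 in each Hs-578T group, with *SPARC* and *CDH2* the low ones in parental MDA-MB-231. Of the epithelial and luminal markers, *ESR1* and *PGR* were under 1 RPKM in every group, while mean *ERBB2* was 31.48 to 55.93 and *GATA3* 4.268 to 9.276. Group means in MDA-MB-231 were 612.5 to 1144 for *KRT8*, 328.3 to 681.8 for *KRT18*, 243.8 to 762.4 for *KRT19* and 7.435 to 25.06 for *EPCAM*. In Hs-578T they were 28.8 to 66.21, 174.6 to 571.5, 0.1864 to 0.3074 and 0.05195 to 0.06493. Means of *FOXA1*, *CDH1*, *ELF3* and *GRHL2* were at most 2.244 RPKM in any group. The defining immune markers *PTPRC* and *CD3E* and endothelial markers *CDH5*, *VWF* and *TEK* were each at a mean under 0.5 RPKM in every group, but *CD14* reached 1.99 and *LYZ* 1.44 RPKM, *KDR* 2.34, and *PECAM1* was at 5.55, 6.39 and 2.89 RPKM in the parental, ERK5-ko and MEK5DD groups of Hs-578T. Other markers on these lists moved with the groups: the 6 endothelial markers summed to 14.9 and 15.1 RPKM in parental MDA-MB-231, 4.85 and 5.13 in ERK5-ko and 64.5 and 67.4 in MEK5DD, led by *ESAM*, and to 3.57 to 6.92 in Hs-578T, led by *PECAM1*. The 6 immune markers summed to 23.7 to 110.1 RPKM, nearly all of it *CD68*. The 12 epithelial and luminal markers summed to 1607 and 1712 RPKM in parental MDA-MB-231, 2675 and 2684 in ERK5-ko and 1211 and 1263 in MEK5DD, and to 308.9 and 239.1, 622.1 and 673, and 261.7 and 295.1 in Hs-578T. The part of these markers in the results below was not tested.

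The 2 parental lines held different sets of these factors. In parental MDA-MB-231, *ZEB1* and *SNAI2* made up 56.3% and 31.3% of the summed RPKM of the 7 factors, and *TWIST1* and *TWIST2* had no reads. In parental Hs-578T, *PRRX1* made up 46.5%, *SNAI2* 20.9%, *TWIST2* 10.1%, *TWIST1* 9.60% and *ZEB1* 7.43%. The sum was 54.4 and 54.4 RPKM in the parental MDA-MB-231 libraries against 335 and 349 RPKM in the parental Hs-578T libraries. It was 45.2 and 40.1 in MDA-MB-231 ERK5-ko and 64.2 and 61.9 in MDA-MB-231 MEK5DD, and 245 and 231 in Hs-578T ERK5-ko and 289 and 305 in Hs-578T MEK5DD. In both lines the 2 libraries labelled ERK5-ko had the lowest sums. The sums are a description with no test, and in bulk RNA fewer cells expressing a gene and less RNA per cell cannot be told apart.

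**Figure D1:**
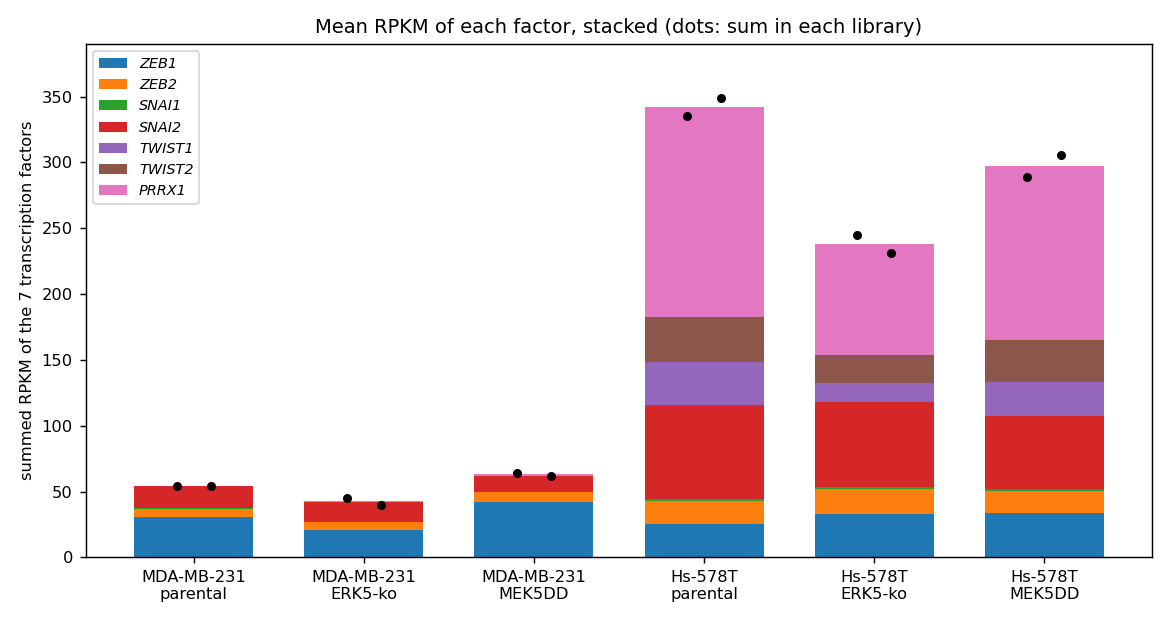
Stacked bars of the mean RPKM of each of the 7 transcription factors in the 6 groups, with black dots for the sum in each of the 2 libraries of a group. The MDA-MB-231 bars hold mainly ZEB1 and SNAI2 and reach 42.7 to 63.0, while the Hs-578T bars hold mainly PRRX1 and SNAI2 and reach 238 to 342.

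Shares between genes depend on the gene length used. The deposited values rest on gene models of 2394 bases for *ZEB1*, 1947 for *ZEB2* and 1531 for *PRRX1*, where the joined exons of GENCODE 29 cover 8650, 25058 and 8246 bases. Per kilobase of those joined exons, parental Hs-578T held 45.3 RPKM of *SNAI2*, 29.6 of *PRRX1* and 23.7 of *TWIST2*, so that *SNAI2* and not *PRRX1* stood first. In parental MDA-MB-231 the same scale gave 10.8 RPKM for *SNAI2* and 8.47 for *ZEB1*, again with *SNAI2* first. Ratios of plain RPKM of 1 gene between libraries do not depend on the length. The log2 changes below, which add a constant to RPKM, and the filter on low values do depend on it, most at low RPKM. Per kilobase of joined exons, mean *PRRX1* in MDA-MB-231 was 0.0232 RPKM in parental and 0.182 in MEK5DD libraries. The constant would shrink that change further, and the fits were not repeated with these lengths.

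Promoter sequences are shown for 3 members that differ in where they were read. *ZEB1* and *VIM* were read in both lines, and *TWIST2* was read only in Hs-578T. The windows lie before the RefSeq start on the plus strand of GRCh38.p14, at chr10:31318167-31318416 for the first of 7 *ZEB1* starts, chr10:17227991-17228240 for *VIM* and chr2:238847835-238848031 for *TWIST2*, the last ending at the base before the gene's start in the deposited table. Capitals mark the E-box CACCTG, the element bound by ZEB and Snail proteins, on either strand (CAGGTG is the same element read from the other strand).
ZEB1: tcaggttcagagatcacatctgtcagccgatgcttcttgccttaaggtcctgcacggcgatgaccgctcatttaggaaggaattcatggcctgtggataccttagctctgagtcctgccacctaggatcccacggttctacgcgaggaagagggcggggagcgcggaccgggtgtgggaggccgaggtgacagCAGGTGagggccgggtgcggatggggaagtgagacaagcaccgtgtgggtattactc
VIM: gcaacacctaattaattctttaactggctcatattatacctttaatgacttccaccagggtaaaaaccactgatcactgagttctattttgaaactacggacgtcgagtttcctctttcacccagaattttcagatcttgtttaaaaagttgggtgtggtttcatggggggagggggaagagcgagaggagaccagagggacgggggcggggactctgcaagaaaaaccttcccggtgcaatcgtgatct
TWIST2: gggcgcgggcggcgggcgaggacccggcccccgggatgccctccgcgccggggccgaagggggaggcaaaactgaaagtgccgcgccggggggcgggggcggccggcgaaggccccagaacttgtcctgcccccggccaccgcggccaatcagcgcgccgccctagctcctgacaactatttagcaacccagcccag

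The *ZEB1* window shown held 1 such E-box, whose first base lay 57 bases before the RefSeq start, and neither other window shown held any. Among windows of the other *ZEB1* starts, the one before 31319216 held 2 and the rest held 0. Of 35116 RefSeq windows of 250 bases, 17.5% held the E-box CACCTG on either strand. The general E-box CANNTG, which also covers CACCTG, was in 61.8% of all windows and occurred 2 times in the *ZEB1* window and not in the *VIM* or *TWIST2* windows. The AP-1 element TGANTCA, which reads the same on both strands apart from its middle base, was in 6.6% of all windows and in none of the 3. CG dinucleotides numbered 15, 8 and 24 in the *ZEB1*, *VIM* and *TWIST2* sequences shown, against a median of 11 over all windows of 250 bases. RefSeq promoter entries were used for 5 of the 8 members and not for *SNAI1*, *SNAI2* and *TWIST1*. Entries on chromosome 8, where *SNAI2* lies, were left out of the search, so it says nothing about *SNAI2*.

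*ZEB1* (ENSG00000148516, chr10:31318495-31529814, plus strand) changed in both directions in MDA-MB-231 and upward in Hs-578T. It was at 30.2 and 31.0 RPKM in parental MDA-MB-231, 22.6 and 19.1 in the libraries labelled ERK5-ko and 43.2 and 41.6 in MEK5DD. It was at 22.3 and 28.7 in parental Hs-578T, 32.7 and 33.3 in ERK5-ko and 31.5 and 36.4 in MEK5DD. The MDA-MB-231 groups did not overlap, with ERK5-ko lowest and MEK5DD highest, while in Hs-578T the parental libraries were the lowest of the line and the other groups overlapped. Fold changes are on the log2(RPKM + 0.5) scale, and adjusted p-values here and below come from limma after Benjamini-Hochberg correction over all tested genes. *ZEB1* fell by 0.55 ± 0.13 (SE) on the log2 scale in MDA-MB-231 ERK5-ko (adjusted p = 0.0124) and rose by 0.38 ± 0.13 in Hs-578T ERK5-ko (adjusted p = 0.0334). In MEK5DD it rose by 0.46 in MDA-MB-231 (adjusted p = 0.0117) and by 0.42 in Hs-578T (adjusted p = 0.0340). ERK5-ko differed from MEK5DD by -1.01 in MDA-MB-231 (adjusted p = 3.81e-05). The difference between ERK5-ko and MEK5DD in Hs-578T was -0.04 with a 95% interval of -0.31 to 0.24. The fall in MDA-MB-231 ERK5-ko was not past the threshold without parental replicate 1, parental replicate 2 or ERK5-ko replicate 2 (adjusted p = 0.0715, 0.0882 and 0.117). Both Hs-578T changes of *ZEB1* missed the threshold when only the 6 Hs-578T libraries were fitted (adjusted p = 0.127 and 0.153) and were 0.20 and 0.24 without parental replicate 1 (adjusted p = 0.269 and 0.212). The ERK5-ko value also missed it without either MDA-MB-231 parental, MDA-MB-231 MEK5DD or Hs-578T ERK5-ko library (adjusted p = 0.0517 to 0.145). The MEK5DD value missed it without any of those 6 libraries or Hs-578T MEK5DD replicate 2 (adjusted p = 0.0545 to 0.117), and with no filter on low values (adjusted p = 0.0521). The MDA-MB-231 MEK5DD rise missed it without parental replicate 1 or 2 or MEK5DD replicate 1 (adjusted p = 0.0698, 0.0514 and 0.0742).

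*ZEB2* (ENSG00000169554, chr2:144384081-144524583, minus strand) passed the test between the lines and in none of the comparisons within a line. It lay between 5.93 and 7.71 RPKM in the 6 MDA-MB-231 libraries and between 14.2 and 19.7 in the 6 Hs-578T libraries. Its log2 difference from parental was -0.06 (95% interval -0.37 to 0.26) for ERK5-ko and 0.11 (-0.21 to 0.43) for MEK5DD in MDA-MB-231, and 0.17 (-0.15 to 0.48) and -0.04 (-0.36 to 0.27) in Hs-578T. These intervals do not exclude changes of up to 0.48 on the log2 scale. Its adjusted p over the 6 comparisons within lines ran from 0.244 to 0.866.

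*SNAI1* (ENSG00000124216, chr20:49982999-49988886, plus strand) was the lowest of the 7 factors in Hs-578T and had 1 to 33 reads per library in MDA-MB-231. It had 11 and 10 reads in parental MDA-MB-231, 7 and 1 in ERK5-ko and 20 and 33 in MEK5DD, which is 0.264 and 0.214, 0.184 and 0.0238, and 0.494 and 0.707 RPKM. In Hs-578T it had 39 to 63 reads in every library, or 1.13 to 1.66 RPKM. The MEK5DD libraries were the highest of MDA-MB-231 and yet under every Hs-578T library. *SNAI1* rose in MDA-MB-231 MEK5DD by 0.57 ± 0.15 (SE; adjusted p = 0.0113), and ERK5-ko differed from MEK5DD by -0.87 (adjusted p = 0.000504). With so few reads the added 0.5 RPKM shrinks the change: the mean RPKM was 2.51 times that of parental cells, and a fit to the recovered reads gave a log2 change of 1.29 (adjusted p = 0.0411). The change missed the threshold without MDA-MB-231 parental replicate 2 or MEK5DD replicate 2 (adjusted p = 0.0744 and 0.110).

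*SNAI2* (ENSG00000019549, chr8:48917690-48921740, minus strand) was the factor that fell in MEK5DD cells of both lines. In MDA-MB-231 it was at 17.1 and 17.0 RPKM in parental, 15.7 and 14.7 in ERK5-ko and 11.9 and 12.2 in MEK5DD libraries. In Hs-578T it was at 74.6 and 68.5, 66.4 and 62.2, and 57.2 and 53.2 RPKM. The order parental, ERK5-ko, MEK5DD was the same in both lines, with no overlap between the groups of a line. *SNAI2* fell in MEK5DD by 0.48 ± 0.09 on the log2 scale in MDA-MB-231 (adjusted p = 0.000918) and by 0.37 ± 0.09 in Hs-578T (adjusted p = 0.0108). The ERK5-ko values were -0.16 and -0.15 (adjusted p = 0.242 and 0.187), with 95% intervals of -0.35 to 0.03 and -0.34 to 0.04. The effect of MEK5DD differed between the lines by -0.11, with a 95% interval of -0.38 to 0.16. The Hs-578T fall missed the threshold under quantile normalization (adjusted p = 0.0511), without parental replicate 1 (adjusted p = 0.0637) and in a fit to the 6 Hs-578T libraries (adjusted p = 0.0842). ERK5-ko and MEK5DD differed by 0.22 in Hs-578T (adjusted p = 0.0559), which passed with the replicate block (adjusted p = 0.0272) and with no filter on low values (adjusted p = 0.0414). The same difference was 0.32 in MDA-MB-231 (adjusted p = 0.00789), and missed the threshold without ERK5-ko replicate 1 or MEK5DD replicate 1 (adjusted p = 0.0627 and 0.0556).

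*TWIST1* (ENSG00000122691, chr7:19020991-19117672, minus strand) was read only in Hs-578T. It had 0 reads in each of the 6 MDA-MB-231 libraries, where 3 reads would have been 0.117 to 0.144 RPKM. In Hs-578T it was at 33.1 and 32.5 RPKM in parental, 16.3 and 12.8 in ERK5-ko and 27.95 and 24.1 in MEK5DD libraries. Against the floor of 3 reads in each MDA-MB-231 library, parental Hs-578T was at least 264.5-fold higher. *TWIST1* fell in Hs-578T ERK5-ko by 1.16 ± 0.13 on the log2 scale (fold 0.449, adjusted p = 3.78e-05), below the study's limit of 0.5-fold. Its MEK5DD value was -0.33 (adjusted p = 0.0792, and 0.0423 with the replicate block), and ERK5-ko differed from MEK5DD by -0.82 (adjusted p = 0.000265). Values of exactly 0 in MDA-MB-231 lower the spread estimated over 12 libraries, so the 6 Hs-578T libraries were also fitted alone, where the ERK5-ko change had an adjusted p of 0.00592.

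*TWIST2* (ENSG00000233608, chr2:238848032-238910543, plus strand) was likewise read only in the Hs-578T libraries. It had 0 reads in the 6 MDA-MB-231 libraries and was at 33.9 and 35.0 RPKM in parental, 22.7 and 20.2 in ERK5-ko and 31.9 and 32.96 in MEK5DD Hs-578T libraries. Parental Hs-578T was at least 387.4-fold above the floor of 3 reads per MDA-MB-231 library. *TWIST2* fell in Hs-578T ERK5-ko by 0.68 ± 0.10 on the log2 scale (fold 0.625, adjusted p = 0.000347, and 0.00957 in the fit to 6 libraries). The MEK5DD value was -0.09 with a 95% interval of -0.31 to 0.13, and ERK5-ko differed from MEK5DD by -0.59 (adjusted p = 0.000582).

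*PRRX1* (ENSG00000116132, chr1:170662728-170739419, plus strand) had the widest range, as a ratio of highest to lowest RPKM, among the 6 members with reads in every library. It had 5 and 5 reads in parental MDA-MB-231, 8 and 15 in ERK5-ko and 34 and 44 in MEK5DD, which is 0.132 and 0.118, 0.232 and 0.392, and 0.923 and 1.04 RPKM. In Hs-578T it was at 154 and 164 RPKM in parental, 87.1 and 81.5 in ERK5-ko and 125 and 138 in MEK5DD libraries. The Hs-578T ERK5-ko libraries were the lowest of that line, and the MEK5DD libraries were the highest of MDA-MB-231. *PRRX1* fell in Hs-578T ERK5-ko by 0.91 ± 0.12 on the log2 scale (fold 0.531, adjusted p = 0.000111), and ERK5-ko differed from MEK5DD by -0.64 there (adjusted p = 0.000846). The fit to the 6 Hs-578T libraries gave an adjusted p of 0.00415 for the first of these. In MDA-MB-231 MEK5DD it rose by 1.24 ± 0.12 (adjusted p = 6.11e-06), a value shrunk by the added 0.5 RPKM, since mean RPKM was 7.85 times that of parental cells and the fit to reads gave 2.86. At a mean of 0.980 RPKM in MDA-MB-231 MEK5DD, *PRRX1* stayed far under its mean of 131.8 RPKM in Hs-578T MEK5DD. The MDA-MB-231 ERK5-ko value of 0.37 rested on 5 to 15 reads (adjusted p = 0.0477); it was past the threshold in 9 of 23 alternatives. It missed it without any 1 of 9 libraries, namely either parental library or either MEK5DD library of MDA-MB-231, MDA-MB-231 ERK5-ko replicate 2, and either parental or ERK5-ko library of Hs-578T, with adjusted p between 0.0501 and 0.3201.

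**Figure D2:**
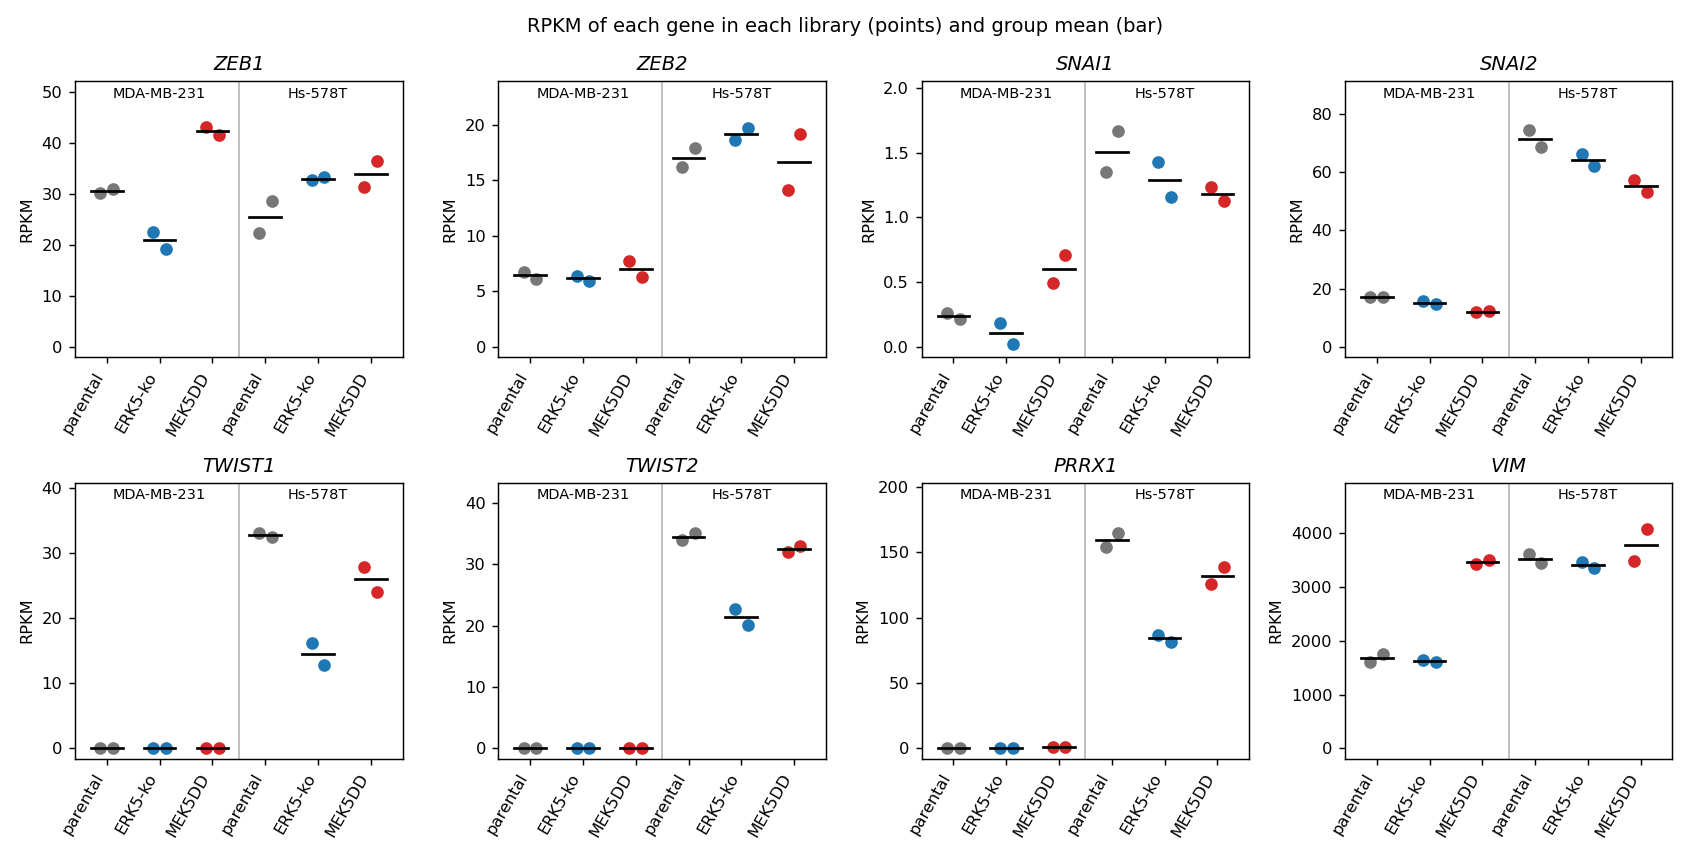
RPKM of each of the 8 genes (y axis, linear, 1 panel per gene) in the 2 libraries of each group (points) with the group mean (bar), MDA-MB-231 left and Hs-578T right of the grey line. TWIST1 and TWIST2 sit at 0 in the 6 MDA-MB-231 libraries, TWIST1, TWIST2 and PRRX1 are lowest of Hs-578T in ERK5-ko, and VIM in MDA-MB-231 has means of 1680 in parental, 1617 in ERK5-ko and 3455 in MEK5DD.

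*VIM* (ENSG00000026025, chr10:17228259-17237593, plus strand) ranked between 4 and 19 from the top of the 13737 tested genes in every group. It was at 1609.5 and 1751 RPKM in parental MDA-MB-231, 1637 and 1598 in ERK5-ko and 3418 and 3492 in MEK5DD. In Hs-578T it was at 3608 and 3433, 3449 and 3352, and 3469 and 4067 RPKM. By deposited RPKM, MDA-MB-231 MEK5DD stood at the level of Hs-578T, and the other 4 MDA-MB-231 libraries were at 1751 RPKM or less. After median-ratio scaling the MDA-MB-231 MEK5DD mean was 3186, under the Hs-578T means of 3712 in parental, 3518 in ERK5-ko and 4232 in MEK5DD. *VIM* rose 2.06-fold in MDA-MB-231 MEK5DD (log2 change 1.04 ± 0.12, adjusted p = 4.01e-05). Its ERK5-ko value was -0.05 in each line, with a 95% interval of -0.32 to 0.22 in Hs-578T and nearly the same in MDA-MB-231, and its MEK5DD value in Hs-578T was 0.09 (-0.18 to 0.36). *VIM* took 0.226% and 0.246% of all reads in parental MDA-MB-231, 0.481% and 0.491% in MEK5DD and 0.472% to 0.572% in Hs-578T.

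Among the entries whose coordinates overlap a member, *VIM-AS1* and *ZEB1-AS1* had the most reads. *VIM-AS1*, a noncoding RNA on the opposite strand at the *VIM* start, was at 5.47 and 6.87 RPKM in parental MDA-MB-231, 3.21 and 2.83 in ERK5-ko and 15.3 and 14.4 in MEK5DD. In Hs-578T it was at 4.91 and 3.33, 7.11 and 6.83, and 2.88 and 3.36 RPKM. *VIM-AS1* fell in MDA-MB-231 ERK5-ko (log2 change -0.92, adjusted p = 0.00604), rose in Hs-578T ERK5-ko (0.71, adjusted p = 0.00805) and rose in MDA-MB-231 MEK5DD (1.21, adjusted p = 0.000289), by limma over all gene types. Of these 3 comparisons, *VIM* passed only in the last. The effect of ERK5-ko on *VIM-AS1* differed between the lines by -1.63 (adjusted p = 0.000611). *VIM-AS1* had 66 to 452 reads per library and *VIM* 51976 to 136278. The library kit keeps strand, but the strand setting of the counting is not given in the sources used here, so a share of *VIM* reads counted to *VIM-AS1* was not tested.

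**Figure D3:**
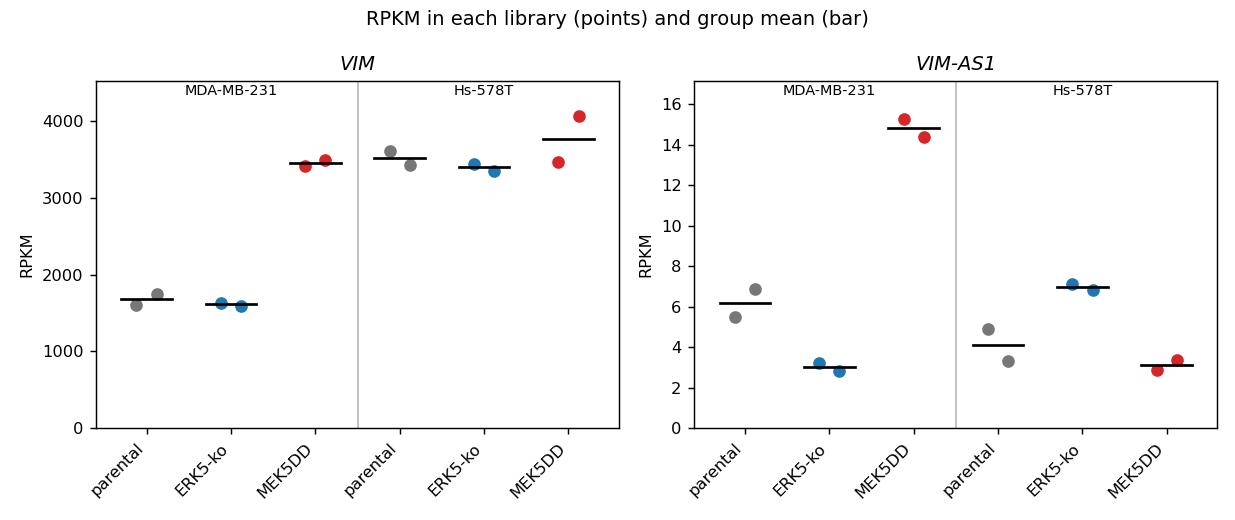
RPKM of VIM and of its antisense neighbour VIM-AS1 (linear axes from 0) in each library (points) with group means (bars). In MDA-MB-231 both are highest in MEK5DD, and in ERK5-ko VIM-AS1 is at a mean of 3.02 against 6.17 RPKM in parental cells while VIM is at 1617 against 1680 RPKM.

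*ZEB1-AS1*, which starts beside *ZEB1* on the opposite strand, was at 5.68 and 4.75 RPKM in parental MDA-MB-231, 3.80 and 4.39 in ERK5-ko and 6.54 and 7.70 in MEK5DD, and at 7.25 and 8.07, 7.60 and 6.84, and 4.16 and 5.34 RPKM in Hs-578T. It rose by 0.42 in MDA-MB-231 MEK5DD (adjusted p = 0.0477) and fell by 0.64 on the log2 scale in Hs-578T MEK5DD (adjusted p = 0.0126), where *ZEB1* had risen. *ZEB2-AS1* had 0 to 2 reads per library. The other overlapping entries were *RP11-124N14.3* in *VIM* (4 to 21 reads), *RP1-79C4.4* in *PRRX1* (0 to 21 reads), *SPTLC1P1* in *ZEB1* (0 or 1 read) and 1 further entry in *ZEB2* (0 or 1 read).

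In the ERK5-ko comparison of MDA-MB-231, 6 members had reads to compare, of which *PRRX1* rose and *ZEB1* fell, while 17.3% of all tested genes passed in that comparison, 6.91% higher and 10.4% lower. The median of the 6 was -0.11 on the log2 scale against -0.04 over all tested genes. In Hs-578T, 1 of 8 rose (*ZEB1*) and 3 of 8 fell (*TWIST1*, *TWIST2*, *PRRX1*), where 39.4% of all genes passed, 19.7% in each direction, and the medians were -0.16 and 0.01. By the study's own limits of more than 1.5-fold or less than 0.5-fold, 0 of 6 members were called in MDA-MB-231, against 3.87% of all genes, and 1 of 8 in Hs-578T (*TWIST1*), against 12.6%. Those folds are on the RPKM + 0.5 scale: on plain mean RPKM, *PRRX1* in MDA-MB-231 ERK5-ko was 2.499 times the parental level, past 1.5-fold. The count in MDA-MB-231 was 1 of 6 with a pseudocount of 1, with no filter, with all gene types, with the recovered reads and in the fit to 6 libraries.

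In the MEK5DD comparison of MDA-MB-231, 4 of 6 members rose (*ZEB1*, *SNAI1*, *PRRX1*, *VIM*) and 1 fell (*SNAI2*), where 41.3% of all genes passed, 17.5% higher and 23.8% lower. The median of the 6 was 0.52 against -0.01 over all tested genes. By the study's limits 2 of 6 were called higher (*PRRX1* and *VIM*), where 13.9% of all genes were called in either direction. *SNAI1* missed 1.5-fold on the RPKM + 0.5 scale only, with a plain ratio of 2.51. In Hs-578T, *ZEB1* rose and *SNAI2* fell among 8 members where 23.4% of all genes passed, 6.44% higher and 17% lower. The study's limits called 0 of 8, against 4.38% of all genes, and 0 of 8 passed in the fit to the 6 Hs-578T libraries. ERK5-ko and MEK5DD were compared with the same parental libraries, so their values for a gene are given side by side and are not independent.

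**Figure D4:**
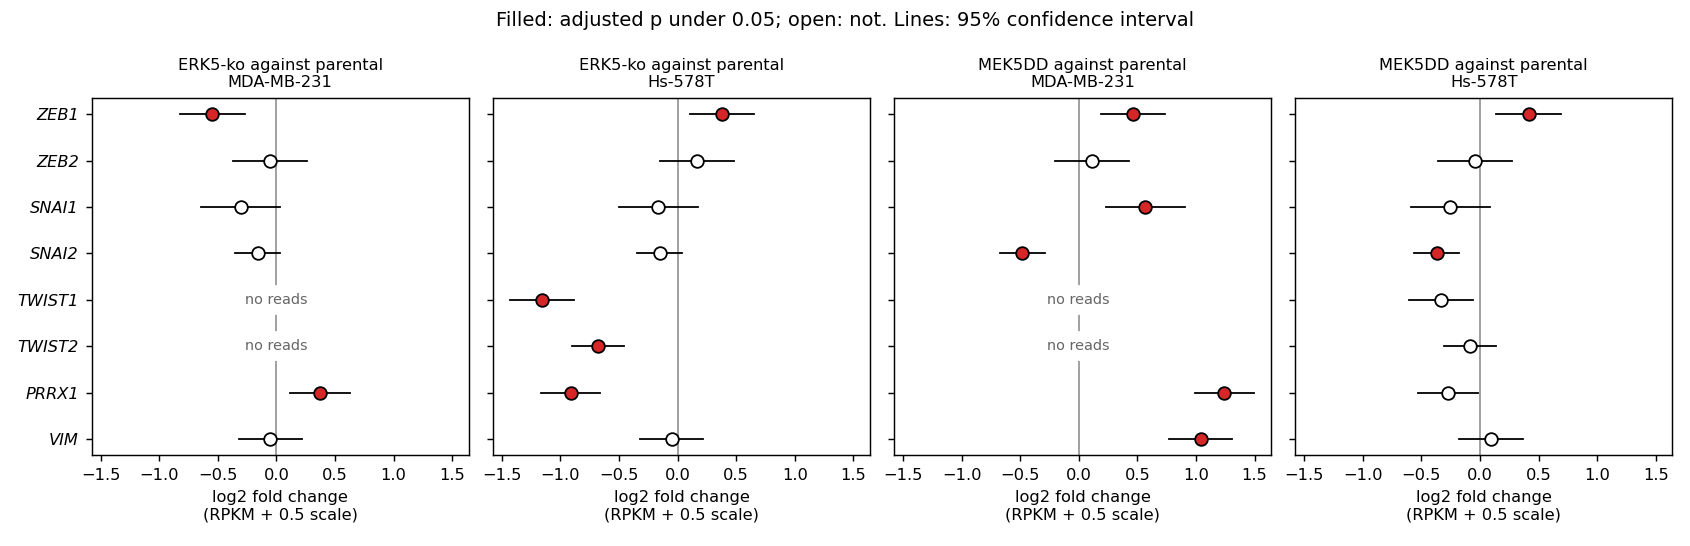
Log2 fold changes on the RPKM + 0.5 scale (x axis) of the 8 genes against parental cells, with 95% confidence intervals (lines), filled points at adjusted p under 0.05. In Hs-578T ERK5-ko, TWIST1, TWIST2 and PRRX1 lie left of 0 (-1.16, -0.68 and -0.91), and in MDA-MB-231 MEK5DD, PRRX1 and VIM lie right of 0 (1.24 and 1.04).

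Between ERK5-ko and MEK5DD, which in Hs-578T share their passage labels, the ERK5-ko libraries were lower for *ZEB1*, *SNAI1*, *PRRX1* and *VIM* and higher for *SNAI2* in MDA-MB-231 (5 of 6 members, with 55% of all genes passing). In Hs-578T they were lower for *TWIST1*, *TWIST2* and *PRRX1* (3 of 8 members, with 50% of all genes passing). *VIM* differed by -1.09 in MDA-MB-231 (adjusted p = 1.62e-05) and by -0.14 in Hs-578T, where the 95% interval was -0.41 to 0.13. Under quantile normalization the Hs-578T value turned to 0.34 and passed (adjusted p = 0.0299).

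Parental MDA-MB-231 was lower than parental Hs-578T for *PRRX1*, *SNAI2*, *ZEB2* and *VIM*, in a comparison where 77.4% of all genes passed. The log2 differences were -8.00 for *PRRX1*, -2.04 for *SNAI2*, -1.34 for *ZEB2* and -1.07 for *VIM*, with adjusted p-values of 3.06e-13, 9.93e-10, 4.57e-06 and 7.79e-06. The added 0.5 RPKM shrinks the *PRRX1* value, since its plain mean RPKM was 1276 times higher in Hs-578T. *SNAI1* passed the filter on low values through Hs-578T only, where it is high, so its ratio of 6.31 (plain mean RPKM, Hs-578T over MDA-MB-231) is a description with no test. The median of all tested genes was 0.19 in this comparison and -0.01 after median-ratio scaling, so the differences relative to that median were larger in size. *ZEB1* was 0.27 higher (adjusted p = 0.0671, and 0.0247 with the replicate block), and 0.05 after median-ratio scaling (adjusted p = 0.735). *VIM* was -0.57 after quantile normalization (adjusted p = 0.000847).

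Whether a change differed between the lines was tested as a difference of differences, MDA-MB-231 minus Hs-578T, for the 6 members with reads in both. For ERK5-ko, 2 of 6 differed, *ZEB1* (-0.92 ± 0.18, adjusted p = 0.00194) and *PRRX1* (1.29 ± 0.16, adjusted p = 0.000127), where 39.8% of all genes passed. For MEK5DD, 3 of 6 differed, *SNAI1* (0.82, adjusted p = 0.0111), *PRRX1* (1.52, adjusted p = 3.30e-05) and *VIM* (0.95, adjusted p = 0.00130), where 39.6% passed. *SNAI1* passed the filter on low values through Hs-578T only, in each group of that line. *MAP2K5* rose 13.6-fold in MDA-MB-231 MEK5DD and 1.42-fold in Hs-578T MEK5DD on the RPKM + 0.5 scale. That is a difference between the lines of 3.26 (adjusted p = 4.84e-08, limma), and its part in the MEK5DD differences was not tested. With the recovered reads in place of RPKM + 0.5, the *PRRX1* difference was 2.14 for ERK5-ko and 3.13 for MEK5DD, and the *SNAI1* difference was 1.63 for MEK5DD. The MEK5DD effect on *ZEB1* differed between the lines by 0.05, with a 95% interval of -0.34 to 0.44. No such test was read for *TWIST1* and *TWIST2*, which had no reads in MDA-MB-231.

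Epithelial genes that these factors are known to repress were described as a list of 28, of which 21 were tested. In MDA-MB-231 ERK5-ko, 11 of 21 rose and 0 fell, with a median log2 change of 0.45 against -0.04 over all tested genes, where 6.91% of all genes passed upward. In MDA-MB-231 MEK5DD, 2 rose and 13 fell, with a median of -1.04, where 23.8% of all genes passed downward. In Hs-578T, 3 rose and 4 fell with ERK5-ko, where 19.7% of all genes passed in each direction, and 2 rose and 3 fell with MEK5DD, where 6.44% passed upward and 17% downward, and 7 of the 21 had 3 reads or fewer in every library of the groups compared. With a group at such counts set to 3 reads, the MDA-MB-231 medians of plain RPKM ratios were 0.48 and -1.04. Over the alternatives, 6 to 12 rose and 0 to 1 fell in MDA-MB-231 ERK5-ko, and 11 to 15 fell in MDA-MB-231 MEK5DD. The 11 that rose were 6 without either parental library or ERK5-ko replicate 2 of MDA-MB-231 and 7 without ERK5-ko replicate 1.

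*LLGL2*, a polarity gene, was at a mean of 14.4 RPKM in parental MDA-MB-231 and 28.7 in ERK5-ko (log2 change 0.97, adjusted p = 0.000114). The keratins *KRT18* (370.1 and 682 RPKM) and *KRT8* (710.3 and 1144 RPKM) rose with it. In MEK5DD, *ESRP2*, an epithelial splicing regulator, went from 4.93 to 0.681 RPKM, *CLDN4*, a tight junction claudin, from 98.5 to 21.7, and *SPINT1*, a protease inhibitor, from 4.74 to 1.37, and all 3 fell (log2 changes -2.21, -2.16 and -1.49). In Hs-578T ERK5-ko *KRT18* rose from 177 to 572 RPKM (1.71) while *KRT8* fell from 48.8 to 28.8 and *SPINT1* from 1.90 to 0.477. In Hs-578T MEK5DD *SPINT1* and *KRT8* rose (0.82 and 0.43) and *PKP3*, a desmosomal plakophilin, fell from 21.2 to 14.7 RPKM. *CDH1* had 35 and 40 reads in parental MDA-MB-231, 32 and 32 in ERK5-ko and 2 and 0 in MEK5DD, and 6 and 10, 54 and 62, and 3 and 9 reads in Hs-578T. It rose in Hs-578T ERK5-ko (1.21, adjusted p = 3.45e-05) and fell in MDA-MB-231 MEK5DD (adjusted p = 2.95e-05), and in MDA-MB-231 ERK5-ko its value was -0.05 (adjusted p = 0.872).

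**Figure D5:**
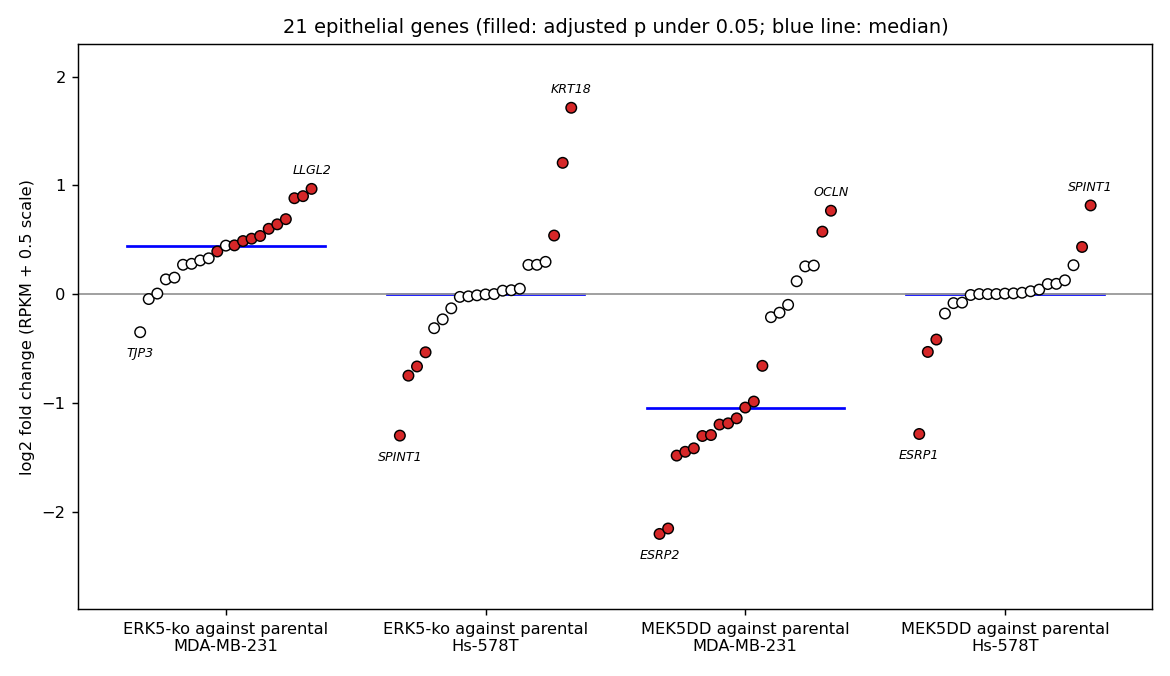
Log2 fold changes against parental cells (y axis, RPKM + 0.5 scale) of 21 epithelial genes, sorted within each of 4 comparisons, filled at adjusted p under 0.05, with the median as a blue line. The median is 0.45 in MDA-MB-231 ERK5-ko and -1.04 in MDA-MB-231 MEK5DD, and close to 0 in both Hs-578T comparisons.

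For the lists that follow, the shares of all tested genes that passed higher and lower were 6.91% and 10.4% in MDA-MB-231 ERK5-ko, 19.7% and 19.7% in Hs-578T ERK5-ko, 17.5% and 23.8% in MDA-MB-231 MEK5DD, and 6.44% and 17% in Hs-578T MEK5DD, and no excess over these shares was tested. Mesenchymal effector genes (25 tested of 26) moved in both directions. With ERK5-ko, 3 rose and 6 fell in MDA-MB-231, and 8 rose and 7 fell in Hs-578T. With MEK5DD, 10 rose and 10 fell in MDA-MB-231, and 9 rose and 1 fell in Hs-578T, where the median was 0.24 against -0.08 over all genes. Leaving out 1 library moved the MDA-MB-231 ERK5-ko counts to between 1 and 5 higher and 2 and 7 lower, with the 2 lower reached without ERK5-ko replicate 2 and the 5 higher without either Hs-578T MEK5DD library. In MDA-MB-231 ERK5-ko *COL1A2*, a collagen chain, went from a mean of 6.80 to 1.63 RPKM, *TAGLN*, an actin-binding smooth muscle protein, from 3.87 to 1.28, and *FBN1* (fibrillin) from 3.70 to 1.44. In MDA-MB-231 MEK5DD *CDH11*, a mesenchymal cadherin, went from 53.1 to 2.31 RPKM and *S100A4* from 2810 to 206. *COL1A2* went from 6.80 to 0.612 there, with 0.116 and 1.108 in the 2 libraries. These are the largest changes of a list in which 10 rose and 10 fell in that group, in which *VIM* rose. Mean *TNC* was 19.4 RPKM in parental and 105 in MEK5DD MDA-MB-231, and mean *LOX* was 27.6 and 55.3. In Hs-578T ERK5-ko *ACTA2* (smooth muscle actin) rose from 140.3 to 476 RPKM, *TNC* (tenascin C) from 2.93 to 9.17 and *TAGLN* from 172 to 437. In Hs-578T MEK5DD *TNC* rose to 11.2 and *FAP* from 44.4 to 99.0, and *ACTA2* fell to 56.5 RPKM.

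Of 7 tested dimer partners, inhibitors and relatives of the factors, 0 rose and 1 fell with ERK5-ko in MDA-MB-231, 1 rose and 1 fell in Hs-578T, 1 rose and 1 fell with MEK5DD in MDA-MB-231, and 1 rose and 2 fell in Hs-578T. The 1 that fell in MDA-MB-231 ERK5-ko, where 10.4% of all genes passed downward, became 0 without MDA-MB-231 parental replicate 1 or 2 or ERK5-ko replicate 1. *ID1*, an inhibitor of helix-loop-helix dimers, fell from 21.3 to 13.2 RPKM in MDA-MB-231 ERK5-ko, rose from 6.83 to 9.95 in Hs-578T ERK5-ko and fell to 2.76 in Hs-578T MEK5DD. *PRRX2*, the paralogue of *PRRX1*, was listed at 0 in MDA-MB-231 and fell from 21.01 to 14.2 RPKM in Hs-578T ERK5-ko (-0.58, adjusted p = 0.0236). *TCF4*, a dimer partner of TWIST proteins, rose from 25.7 to 50.7 RPKM in Hs-578T MEK5DD. In MDA-MB-231 MEK5DD *ID2* rose from 0.285 to 0.723 and *ID3* fell from 4.28 to 2.64 RPKM, and *ID2* fell from 49.7 to 32.6 in Hs-578T MEK5DD.

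Corepressors and chromatin partners (31 tested) had 0 higher and 7 lower in MDA-MB-231 ERK5-ko, with a median of -0.25, where 6.91% and 10.4% of all genes passed. The other counts were 6 higher and 3 lower in Hs-578T ERK5-ko, 9 and 7 in MDA-MB-231 MEK5DD, and 0 and 5 in Hs-578T MEK5DD. *EZH2*, the methyltransferase of the Polycomb complex, went from 36.2 to 22.0 RPKM in MDA-MB-231 ERK5-ko, *DNMT1*, the maintenance DNA methyltransferase, from 188 to 116, and *DNMT3B* from 1.73 to 0.888. *DNMT1* rose from 66.3 to 116 RPKM in Hs-578T ERK5-ko, with *SUV39H1* (5.56 to 11.2) and *EED* (6.24 to 9.71). In MDA-MB-231 MEK5DD *RCOR1* rose from 40.5 to 83.1 and *MTA1* from 33.1 to 64.3 RPKM, and *RBBP7* fell from 264 to 134. *SUV39H1*, *EZH2* and *PRMT5* fell in Hs-578T MEK5DD (-0.84, -0.58 and -0.48). These counts moved with the setting: over the alternatives, 0 to 14 corepressors fell in MDA-MB-231 ERK5-ko and 0 to 15 in Hs-578T MEK5DD. The 7 lower became 2 without MDA-MB-231 parental replicate 2 and 12 without either Hs-578T MEK5DD library, and the 5 lower in Hs-578T MEK5DD became 15 without its replicate 2.

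Regulators of the stability of these proteins (29 tested) had 0 higher and 2 lower in MDA-MB-231 ERK5-ko, 6 and 3 in Hs-578T ERK5-ko, 4 and 3 in MDA-MB-231 MEK5DD, and 1 and 8 in Hs-578T MEK5DD. The 6 higher in Hs-578T ERK5-ko, where 19.7% of all genes passed upward, became 0 without Hs-578T parental replicate 1 or ERK5-ko replicate 2. *FBXO45*, a ubiquitin ligase subunit, and *USP10*, a deubiquitinase, fell in MDA-MB-231 ERK5-ko (8.33 to 5.29 and 52.0 to 34.8 RPKM), and *USP10* and *USP11* rose in MDA-MB-231 MEK5DD (0.73 and 0.51) while *OTUB1* fell (-0.51). In Hs-578T ERK5-ko *STUB1* fell from 95.6 to 56.1 and *MDM2* rose from 15.8 to 25.4 RPKM, with *FBXW7* (6.65 to 9.60). In Hs-578T MEK5DD *FBXL14*, *PPIL2* and *USP10* fell (-0.68, -0.58 and -0.56), and 0 to 14 of the list fell over the alternatives, with 14 reached without MEK5DD replicate 2.

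Upstream signals (44 tested) had 5 higher and 13 lower in MDA-MB-231 ERK5-ko, 17 and 6 in Hs-578T ERK5-ko, 9 and 12 in MDA-MB-231 MEK5DD, and 6 and 14 in Hs-578T MEK5DD. The Hs-578T ERK5-ko counts, where 19.7% of all genes passed in each direction, became 9 and 3 without ERK5-ko replicate 2, and over the alternatives 3 to 17 were lower in MDA-MB-231 ERK5-ko. In MDA-MB-231 ERK5-ko *HES1*, a Notch target, fell from 7.27 to 2.11 RPKM, while the cytokine *IL6* rose from 10.1 to 28.04 and the ligand *TGFB2* from 34.5 to 76.8. In Hs-578T ERK5-ko the AP-1 subunit *FOSL1* rose from 48.6 to 118 RPKM and *KLF8* from 0.315 to 1.63, and *TGFB3* fell from 19.3 to 7.66. In MDA-MB-231 MEK5DD *LEF1*, a Wnt effector, rose from 3.73 to 13.9 RPKM and *ETS1* from 63.8 to 201. In Hs-578T MEK5DD *LEF1* rose from 12.3 to 20.7, and *JAG1*, a Notch ligand, fell from 112 to 47.2 RPKM. *SIX2* fell from 0.473 to 0.0444 RPKM there, with 0.0224 and 0.0664 in the MEK5DD libraries, so its value rests on few reads. Its mean past 1 RPKM comes from MDA-MB-231, where group means were 1.766 to 3.459.

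Other intermediate filament genes and filament-linked genes (10 tested) had 1 higher and 3 lower in MDA-MB-231 ERK5-ko, 2 and 0 in Hs-578T ERK5-ko, 0 and 3 in MDA-MB-231 MEK5DD, and 0 and 2 in Hs-578T MEK5DD. The 3 lower in MDA-MB-231 ERK5-ko, where 10.4% of all genes passed downward, became 0 without parental replicate 2 or ERK5-ko replicate 2, and the 2 higher in Hs-578T ERK5-ko became 6 without Hs-578T parental replicate 2. The lamins *LMNB1* and *LMNB2* fell in MDA-MB-231 ERK5-ko (97.9 to 65.3 and 305 to 187 RPKM) and rose in Hs-578T ERK5-ko (37.98 to 68.8 and 93.3 to 157 RPKM), and both fell in Hs-578T MEK5DD. *FAM83H*, a keratin-associated gene, rose from 3.64 to 5.90 RPKM in MDA-MB-231 ERK5-ko and fell to 0.153 in MEK5DD, where *NES* (nestin) fell from 9.64 to 2.89 and *GFAP* from 7.75 to 2.01.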

How the data were processed

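Cells were harvested for RNA at 70% confluence, and the sequencing kit was a strand-keeping mRNA kit, per the labels. The authors deposited RPKM values, 1 column per library and no replicates pooled. The submitters' processing notes name bcl2fastq, Trimmomatic 0.32, TopHat2 2.1.1, R 3.3.1, DESeq2 1.12.4 and GRCh38 without giving each a role; the counting tool and annotation are not given in the sources used here. Library totals and reads were recovered from the RPKM values: 32151 of 32152 genes gave whole reads within a relative tolerance of 1e-06, and totals 1% off gave them for 0 of 500 genes. Groups follow the sample titles. Protein-coding genes with at least 0.5 RPKM in at least 2 of 12 libraries were tested with limma 3.58.1 (R 4.3.3; Python 3.11.15 elsewhere) on log2(RPKM + 0.5), with 6 group means, 6 residual degrees of freedom, a variance trend, and Benjamini-Hochberg adjustment per comparison; passing meant an adjusted p under 0.05. The filter let *TWIST1*, *TWIST2* and *SNAI1* in through Hs-578T only; within MDA-MB-231, *PRRX1* reached it in the MEK5DD libraries alone. With 2 against 2 libraries an exact permutation test cannot go below a two-sided p of 0.333, so single genes were judged by the pooled fit. On simulated data for the Hs-578T ERK5-ko comparison the fit called 90 of 105 genes changed by 1 on the log2 scale, 95 of 95 changed by 2 and 4 of 13537 unchanged ones. The simulated noise was independent and had the same spread in all groups for a gene. The real replicates differed in spread between groups and were correlated, so these counts give no error rate for the real comparisons. Replicate numbers in the titles were checked for pairing: deviations from group means correlated at 0.107 to 0.541 in all 6 pairs of groups within a line, so a replicate block per line is given where it changes a call. The members and lists were chosen with earlier results of these data known. Named genes were the members, the entries overlapping them, and per list and comparison with parental cells the 3 largest passing changes among genes at a mean of 1 RPKM or more; *CDH1* was added after its values were seen. A few list genes that were counted are not reported here by name. Alternatives covered pseudocount, filter, scaling, gene types, a fit to reads, the block, single lines and leaving out each library. DNA sequences are from RefSeq.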

Additional observations from a re-analysis of the deposited data

Results flagged for a closer look

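Responses that differed between the cell lines by the test of the difference itself were found for 4 members. *ZEB1* differed for ERK5-ko by -0.92 (MDA-MB-231 minus Hs-578T, log2 scale), since it fell in MDA-MB-231 and rose in Hs-578T, and *PRRX1* differed by 1.29. For MEK5DD, *PRRX1* differed by 1.52, *VIM* by 0.95 and *SNAI1*, which passed the filter on low values through Hs-578T only, by 0.82. *MAP2K5*, the gene of MEK5, itself rose more in MDA-MB-231 MEK5DD, by a difference of 3.26, and its part in these values was not tested. The *SNAI1* difference had an adjusted p (limma) of 0.0532 without MDA-MB-231 MEK5DD replicate 2, and the *SNAI1* and *PRRX1* values rest on at most 44 reads in any MDA-MB-231 library. With the recovered reads in place of RPKM + 0.5, the MEK5DD differences were 1.63 for *SNAI1* and 3.13 for *PRRX1*.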

How the results depend on the processing

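Of 642 values of single members under other settings, 597 kept their direction and side of the threshold, 27 fell short of it, 4 newly passed and 14 changed sign; on leaving out single libraries, 659 of 720 kept both, 36 fell short, 5 newly passed and 20 changed sign. A group left with 1 library was assumed to vary like the others. Leaving out a library outside the groups compared changed the spread and not the log2 value. The study's fold limits, the block, the filters, all gene types and the single-line fits also kept the log2 values. In those entries the sign could not change, so the counts that kept direction were partly fixed in advance. Counts of members that passed moved as follows. With ERK5-ko in MDA-MB-231 the count was 2; it was 0 under the study's fold limits, 1 with a pseudocount of 1, no filter, all gene types, a fit to reads or only that line's libraries, and 0 to 2 without single libraries. With ERK5-ko in Hs-578T it was 4, then 1 under the study's limits and 3 to 4 without single libraries. With MEK5DD in MDA-MB-231 it was 5, then 2 under the study's limits and 3 to 5 without single libraries. With MEK5DD in Hs-578T it was 2, then 0 under the study's limits or with only that line's libraries, 1 with no filter or quantile normalization, and 0 to 2 without single libraries. Between ERK5-ko and MEK5DD it was 5 (MDA-MB-231) and 3 (Hs-578T), then 2 and 0 under the study's limits, and 4 to 5 and 3 to 4 without single libraries. Between parental lines it was 5 with *SNAI1* counted, whose difference there is read only as a description. For differences between lines it was 2 for ERK5-ko (1 under the study's limits, 2 to 2 without single libraries) and 3 for MEK5DD (2 to 3). The order of the 6 groups by level was kept for 5 of 8 members under median-ratio scaling and not for *ZEB2*, *TWIST2* and *VIM*.

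The replicate block moved 3 calls past the threshold, *TWIST1* for MEK5DD in Hs-578T (adjusted p = 0.0423), *SNAI2* between ERK5-ko and MEK5DD in Hs-578T (adjusted p = 0.0272) and *ZEB1* between parental lines (adjusted p = 0.0247), and changed no other call.

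Values that changed sign had not passed as reported, and 1 passed with its sign turned, *VIM* between ERK5-ko and MEK5DD in Hs-578T under quantile normalization (adjusted p = 0.0299). Under median-ratio scaling they became 0.0073 for *ZEB2* and 0.014 for *VIM* (ERK5-ko, MDA-MB-231), 0.0464 for *ZEB2* and 0.0052 for *TWIST2* (MEK5DD, Hs-578T), and, as differences between lines, 0.0855 for *SNAI2* and 0.0913 for *VIM* with ERK5-ko and -0.0085 for *ZEB1* with MEK5DD. Under quantile normalization *VIM* became 0.17 (ERK5-ko, Hs-578T), -0.17 (MEK5DD, Hs-578T) and 0.34 (ERK5-ko against MEK5DD, Hs-578T), *ZEB2* 0.0433 and *TWIST2* 0.0224 (MEK5DD, Hs-578T), and the line differences 0.0395 for *SNAI2* (ERK5-ko) and -0.0119 for *ZEB1* (MEK5DD). Without single libraries the ranges were -0.12 to 0.0067 for *ZEB2* and -0.11 to 0.0069 for *VIM* (ERK5-ko, MDA-MB-231), -0.0237 to 0.24 for *ZEB2* (MEK5DD, MDA-MB-231), and -0.26 to 0.17 for *ZEB2* and -0.0207 to 0.21 for *VIM* (MEK5DD, Hs-578T). Between ERK5-ko and MEK5DD in Hs-578T they were -0.14 to 0.0661 for *ZEB1*, -0.0006 to 0.42 for *ZEB2* and -0.0237 to 0.20 for *SNAI1*. For line differences they were -0.33 to 0.0553 for *SNAI1*, -0.0685 to 0.0527 for *SNAI2* and -0.0648 to 0.0567 for *VIM* with ERK5-ko, and -0.13 to 0.23 for *ZEB1* and -0.058 to 0.37 for *ZEB2* with MEK5DD. Scaling also moved the split over all genes: 39.89% of ERK5-ko calls in MDA-MB-231 were higher, against 53.2% under median-ratio scaling and 50.65% under quantile normalization; the same shares were 27.51%, 44.54% and 46.41% for MEK5DD in Hs-578T and 61.52%, 48.48% and 49.87% between ERK5-ko and MEK5DD there. For MEK5DD in MDA-MB-231 the share was 42.48% against 52.93% under quantile normalization, and between parental lines 59.5% against 48.94% under median-ratio scaling. The cause of these moves was not tested. With 2 libraries a group and 1 to 44 reads for *SNAI1* and *PRRX1* in MDA-MB-231, counting error limits those values.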

Other observations

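Genes whose pattern was most like a member's were found by Pearson's r over the 12 libraries, after the mean of each cell line was removed from log2(RPKM + 0.5), among 12423 protein-coding genes at a mean of 1 RPKM or more. The r values describe 6 groups of 2 libraries and carry no test. *TWIST1* and *TWIST2* are at 0 in every MDA-MB-231 library, so their r values rest on the 3 Hs-578T groups alone, and variation of the other gene in MDA-MB-231 can only lower them. For *ZEB1* they were *RASSF8* (0.976), *RAI14* (0.961) and *ZHX3* (0.960). For *ZEB2* they were *CTD-2116N17.1* (0.932), *FLVCR1* (0.914) and *PARD3* (0.903), the lowest of the 8. For *SNAI1* they were *TMC7* (0.958), *CIPC* (0.938) and *MAML3* (0.937), and for *SNAI2* *GPRC5C* (0.964), *CMTM7* (0.957) and *APOBEC3F* (0.934). *TWIST1* was nearest to *VIPAS39* (0.989), *RPS6KA1* (0.983) and *CYTL1* (0.982). *TWIST2* was nearest to the homeobox gene *HOXA5* (0.997), the growth arrest gene *GAS1* (0.996) and the Wnt antagonist gene *SFRP2* (0.992), and *PRRX1* to *GLTSCR2* (0.976), *MARCH9* (0.955) and *ANGEL1* (0.953). *VIM* was nearest to the cytokine gene *IL24* (0.987), *C1orf198* (0.985) and *SNCAIP* (0.983).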
